A study of Mus musculus with 19 samples.

Results

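The transcripts of 6 genes were followed in C2C12 cells, a mouse myoblast line, during exposure to thapsigargin and after its removal. They were the early growth response factors Egr1, Egr2 and Egr3, the EGR-binding repressors Nab1 and Nab2, and Srf, the serum response factor. They were taken by name from the 55401 genes of the count tables, and all 6 passed the filter on low counts. An early rise and a late fall of EGR genes in these data was known when they were chosen, so their values are a description with each gene's own test from the fit over all genes, and the counts of called genes are not independent evidence of that pattern.

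Polyadenylated RNA was sequenced in 19 libraries of 7 groups. Thapsigargin, which blocks the SERCA calcium pump of the endoplasmic reticulum, was given at 100 nM to wild-type C2C12 cells kept in DMEM with serum, and the vehicle was DMSO. The groups were thapsigargin at 2 h (n = 3) and DMSO at 2 h (n = 3), thapsigargin at 6 h (n = 3) and DMSO at 6 h (n = 3), thapsigargin at 12 h (n = 2) and DMSO at 12 h (n = 2), and recovery (n = 3), which had 6 h of the drug and then 48 h without it. DMSO was not sampled at the age of the recovery cultures, so a return after the drug cannot be told apart from longer culture. The labels leave unsaid whether replicates came from separate cultures; if they did not, p-values measure a spread between libraries that may be technical only.

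In GRCm38 coordinates, Egr1 (ENSMUSG00000038418.7) lies at chr18:34859823-34864984 on the plus strand. Egr2 (ENSMUSG00000037868.15) lies at chr10:67535475-67542188 and Egr3 (ENSMUSG00000033730.4) at chr14:70077203-70082614, both on the plus strand. On the minus strand, Nab1 (ENSMUSG00000002881.14) lies at chr1:52457294-52500679, Nab2 (ENSMUSG00000025402.12) at chr10:127660918-127668568 and Srf (ENSMUSG00000015605.6) at chr17:46548329-46556175. Opposite Nab2, 3 annotated genes share exon bases with it. The antisense gene Gm16229 covers 35.7% of its exon length and had 2 counts in 1 library and 0 in the other 18. Nemp1 covers 5.13% and Stat6 1.36%. The strand setting of the counting is not given in the sources used here, and without strand, reads of such partners cannot be told apart from those of Nab2. Reads on shared bases may then have been set aside as ambiguous, and the low count of Gm16229 would be no measure of its reads. Ambiguous reads made up 5.493% to 8.177% of all counts in the libraries.

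SRF binds CArG boxes in the promoters of growth-factor-responsive genes and cytoskeletal genes. With ternary complex factors (TCF), which are phosphorylated by the kinase ERK, it turns on immediate early genes within minutes of a stimulus, and with myocardin-related factors (MRTF) it drives genes of the actin cytoskeleton and of muscle. The EGR genes are among the immediate early targets. Their products are zinc finger factors that bind a GC-rich site, and Nab2 is known as an EGR1-induced gene whose product binds EGR factors and holds back their activity in a feedback loop.

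No RefSeq promoter window was at hand for Egr3, and none was used for Egr1, so the promoters of these genes were not searched. RefSeq windows from 250 bases before to 50 bases after a transcript start (GRCm38.p6) were taken for 4 of the 6 genes, namely Egr2, Nab1, Nab2 and Srf. They were searched on both strands for the CArG box, the SRF site, which 1.629% of all 32851 such windows and 1.806% of the 27025 genes with a window held, and for the EGR site GCGNGGGCG, which 5.552% held. No window of these 4 genes held the cyclic AMP response element TGACGTCA or TGATGNAA, a core of the element bound by CEBP-ATF pairs, which 1.79% and 3.969% of all windows held. The next 3 windows are shown because they hold a CArG box or an EGR site, printed in capitals, and a match is a description of the letters only.
Egr2, chr10:67537619-67537918, plus strand: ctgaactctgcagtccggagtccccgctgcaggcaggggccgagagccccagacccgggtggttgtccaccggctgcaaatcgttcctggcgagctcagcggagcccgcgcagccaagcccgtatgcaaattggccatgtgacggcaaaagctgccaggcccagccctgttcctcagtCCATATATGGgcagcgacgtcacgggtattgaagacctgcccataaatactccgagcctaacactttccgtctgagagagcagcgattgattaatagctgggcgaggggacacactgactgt
Srf, chr17:46556113-46556412, minus strand: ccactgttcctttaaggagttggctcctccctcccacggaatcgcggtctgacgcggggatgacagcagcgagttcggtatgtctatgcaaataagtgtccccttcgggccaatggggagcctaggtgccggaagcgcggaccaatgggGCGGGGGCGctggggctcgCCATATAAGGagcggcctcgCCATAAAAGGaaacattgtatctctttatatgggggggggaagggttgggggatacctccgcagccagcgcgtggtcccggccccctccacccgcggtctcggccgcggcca
Nab1, chr1:52500399-52500698, minus strand: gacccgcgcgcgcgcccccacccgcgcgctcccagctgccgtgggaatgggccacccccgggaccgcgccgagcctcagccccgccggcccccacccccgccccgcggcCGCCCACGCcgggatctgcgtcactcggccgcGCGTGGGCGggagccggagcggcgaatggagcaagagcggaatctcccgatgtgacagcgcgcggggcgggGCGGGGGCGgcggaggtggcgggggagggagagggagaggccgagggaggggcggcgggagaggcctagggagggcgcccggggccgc
In the Egr2 window the CArG box CCATATATGG stood 72 to 63 bases before the start, and it also lies in 2 other Egr2 windows that overlap this one. Of the other 2 Egr2 windows, 1 held a different CArG box, so the 5 windows hold 2 distinct boxes. The Srf window held 2 of them, CCATATAAGG from base -82 to -73 and CCATAAAAGG from base -62 to -53, with the EGR site GCGGGGGCG upstream from base -101 to -93. The Nab1 window held no CArG box and 3 EGR sites, which read CGCCCACGC on the shown strand at -141 to -133, GCGTGGGCG at -109 to -101 and GCGGGGGCG at -38 to -30. The Nab2 window (chr10:127666654-127666953, minus strand) held none of the 4 motifs. It lies inside the span of Nab2 given above, and no window at the upstream end of that span, base 127668568, was searched.

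Library totals were 32.13 to 40.96 megareads assigned to genes at 2 h, 31.66 to 36.2 at 6 h, 17.31 to 21.83 at 12 h and 23.59 to 38.31 in recovery. Mitochondrial transcripts took 15.797% of the gene reads in DMSO replicate 3 at 2 h and 14.886% in recovery replicate 1, against 1.411% to 3.068% in the other 17 libraries. The 5 myoblast markers (Myod1, Myf5, Pax7, Des, Cdh15) were all detected in each group, and their summed level lay between 550 and 5000 counts per megaread (CPM). Des had the highest mean of the 5 in each group, and the sum hides differences between them. Myod1 averaged 212 CPM with DMSO at 2 h and 14.4 CPM with DMSO at 12 h. At 6 h Myf5 was called higher with thapsigargin and Pax7 and Cdh15 lower, and the Pax7 call was lost without any 1 library. Myod1 and Des were not called at 6 h. The sum of 5 epithelial markers was 16 to 28.8 CPM with thapsigargin at 6 h, against 1.12 to 3.36 CPM with DMSO at 6 h. That of 5 endothelial markers was 2.64 to 4.79 CPM with thapsigargin at 6 h, against 0.514 to 0.61 CPM with DMSO at 6 h. The sum of 5 macrophage markers lay between 2.41 and 11.2 CPM and that of 4 markers of differentiated muscle between 3.82 and 70.9 CPM. Epcam and the macrophage marker Adgre1 were at 0 in every group, and the part of these markers in the results was not tested.

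Egr1, Egr2 and Egr3 rose 2 h after thapsigargin, while Srf, the factor that acts on their promoters, was lower than in vehicle and neither NAB repressor passed the test. Egr1, the most abundant of the 3 per kilobase of exon, had 1194, 1217 and 1109 CPM with thapsigargin at 2 h, against 92.2, 80.1 and 326 CPM with DMSO at 2 h. The groups did not overlap, and DMSO replicate 3, the library rich in mitochondrial transcripts, stood above the other vehicle libraries. The difference was 2.82 ± 0.47 (log2 ± SE of the fit), or 7.07-fold, with an adjusted p of 0.0021 in edgeR's quasi-likelihood test. Without DMSO replicate 3 it was 3.77. In RNA of whole cultures, a change in transcript per cell and in the number of cells that express a gene cannot be told apart.

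Egr2, best known for its part in hindbrain patterning and in myelination by Schwann cells, had 161, 150 and 140 CPM with thapsigargin at 2 h, against 31.7, 27.9 and 57.1 CPM with DMSO at 2 h. All treated libraries exceeded all vehicle libraries, by 1.95 ± 0.37 on the log2 scale (adjusted p = 0.0064). Egr3, known for its part in muscle spindle development, had 187, 189 and 170 CPM with thapsigargin at 2 h, against 47.8, 45.9 and 88.3 CPM with DMSO at 2 h. Its groups were also apart, by 1.58 ± 0.42 (adjusted p = 0.040). That call did not hold without any 1 thapsigargin library or without DMSO replicate 1 or 2 (adjusted p = 0.12, 0.12, 0.091, 0.13 and 0.14), nor with a replicate block (0.079) or scaling by total counts (0.090).

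Srf had 152, 141 and 144 CPM with thapsigargin at 2 h, against 242, 197 and 355 CPM with DMSO at 2 h. Every treated library was below every vehicle library, and Srf fell by 0.86 ± 0.19 on the log2 scale (adjusted p = 0.015), to a mean 1.81-fold lower. The vehicle mean of 265 CPM was 219 CPM without DMSO replicate 3, the library rich in mitochondrial transcripts. Over fits that left out 1 library, Srf differed by -1.03 to -0.59. Its call was lost without any 1 of the thapsigargin libraries (adjusted p = 0.058, 0.073 and 0.067), without the filter on low counts (0.097), in a fit of the 2 h groups alone (0.058), and under total-count scaling, where the difference was -0.61 (0.36) and the median of all genes moved to 0.167, from -0.04 under TMM scaling.

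Nab1 had 101, 96.5 and 94.9 CPM with thapsigargin at 2 h, against 94.2, 104 and 117 CPM with DMSO at 2 h. Nab2 had 81.6, 79.7 and 64.2 CPM with thapsigargin at 2 h, against 80.4, 71.1 and 86.7 CPM with DMSO at 2 h. The groups overlapped for both repressors, with log2 differences of -0.11 ± 0.27 for Nab1 (adjusted p = 0.92) and -0.08 ± 0.22 for Nab2 (adjusted p = 0.93), which took the other sign under total-count scaling (0.12 and 0.15). Over the 6 genes, 3 were called higher and 1 lower at 2 h, where 4.52% of the 18039 genes tested were called in either direction, 3.01% higher and 1.51% lower.

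By 6 h the EGR genes stood on the other side of vehicle. Egr1 had 22.1, 16.1 and 15.3 CPM with thapsigargin at 6 h, against 71.4, 79.6 and 41.9 CPM with DMSO at 6 h. Egr2 had 1.24, 1.15 and 0.794 CPM with thapsigargin at 6 h, against 5.77, 6.66 and 2.33 CPM with DMSO at 6 h. Egr3 had 3.25, 1.46 and 1.56 CPM with thapsigargin at 6 h, against 9.77, 17.4 and 7.43 CPM with DMSO at 6 h. For all 3, the highest treated library was below the lowest vehicle library. Egr1 fell by 1.85 ± 0.45 (adjusted p = 0.0073), Egr2 by 2.22 ± 0.40 (0.00082) and Egr3 by 2.46 ± 0.44 (0.00079) on the log2 scale.

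Nab2 also fell at 6 h. It had 35.6, 59.7 and 59.5 CPM with thapsigargin at 6 h, against 136, 110 and 139 CPM with DMSO at 6 h, with no overlap. The difference was -1.31 ± 0.22 (adjusted p = 0.00044), a level 2.48-fold lower. Of its overlapping genes, Nemp1 had 25, 11 and 14.1 CPM with thapsigargin at 6 h, against 25.9, 29.7 and 13.9 CPM with DMSO at 6 h.

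The other repressor and Srf did not pass the test at 6 h. Nab1 had 40.2, 18.5 and 19.6 CPM with thapsigargin at 6 h, against 29.5, 38.1 and 22.5 CPM with DMSO at 6 h, and the groups overlapped (log2 difference -0.20 ± 0.27, adjusted p = 0.68). Srf had 91.3, 90.4 and 96.3 CPM with thapsigargin at 6 h, against 105, 108 and 111 CPM with DMSO at 6 h. These did not overlap, but the difference of -0.22 ± 0.19 was close to its error (adjusted p = 0.46). Thus 4 of the 6 genes were called lower and 0 higher at 6 h, where 21.8% of all genes were called in either direction, 13% higher and 8.79% lower.

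At 12 h the EGR transcripts with thapsigargin were the lowest of all groups, and those of Egr2 and Egr3 rested on few reads. Egr1 had 4.64 and 4.39 CPM with thapsigargin at 12 h, against 120 and 120 CPM with DMSO at 12 h. It was 26.5-fold lower (log2 difference -4.73 ± 0.63, adjusted p = 9.4e-05), in libraries with 91 and 95 counts of the gene. Egr2 had 0.204 and 0.277 CPM with thapsigargin at 12 h, from 4 and 6 counts, against 8.63 and 10.3 CPM with DMSO at 12 h. Egr3 had 0.51 and 0.277 CPM with thapsigargin at 12 h, from 10 and 6 counts, against 8.88 and 9.5 CPM with DMSO at 12 h. No treated library came near a vehicle library for any of the 3. From summed counts scaled for depth, Egr2 was 38.9-fold lower (95% exact interval 20.9 to 81.7, counting error only). Egr2 fell by 5.27 ± 0.61 (adjusted p = 2.5e-05) and Egr3 by 4.54 ± 0.65 (adjusted p = 0.00018) on the log2 scale.

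Nab2 had 11.4 and 16.1 CPM with thapsigargin at 12 h, against 53.1 and 52.9 CPM with DMSO at 12 h. Both treated libraries were lower, and the fall of 1.94 ± 0.28 was called (adjusted p = 0.00016). Nemp1, which shares exon bases with Nab2, had 22.5 and 23.2 CPM with thapsigargin at 12 h, against 52.4 and 48.6 CPM with DMSO at 12 h. Nab1 had 75.3 and 63 CPM with thapsigargin at 12 h, against 108 and 111 CPM with DMSO at 12 h. Srf had 40.4 and 44.6 CPM with thapsigargin at 12 h, against 55.7 and 53.6 CPM with DMSO at 12 h. Neither pair of groups overlapped, yet Nab1 at -0.67 ± 0.34 (adjusted p = 0.24) and Srf at -0.36 ± 0.23 (adjusted p = 0.39) did not pass. Both were called in a fit of the 12 h groups alone (Nab1 -0.63, adjusted p = 6.5e-09, and Srf -0.33, adjusted p = 0.0018), but that fit called 62.2% of all genes. Srf was also called without the 2 libraries above 10% mitochondrial reads (-0.38, adjusted p = 0.042), where 25.5% of all genes were called. As at 6 h, the fit over all groups called 4 of the 6 genes lower and 0 higher. It called 13.1% of all genes in either direction, 6.29% higher and 6.77% lower.

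**Figure D1:**
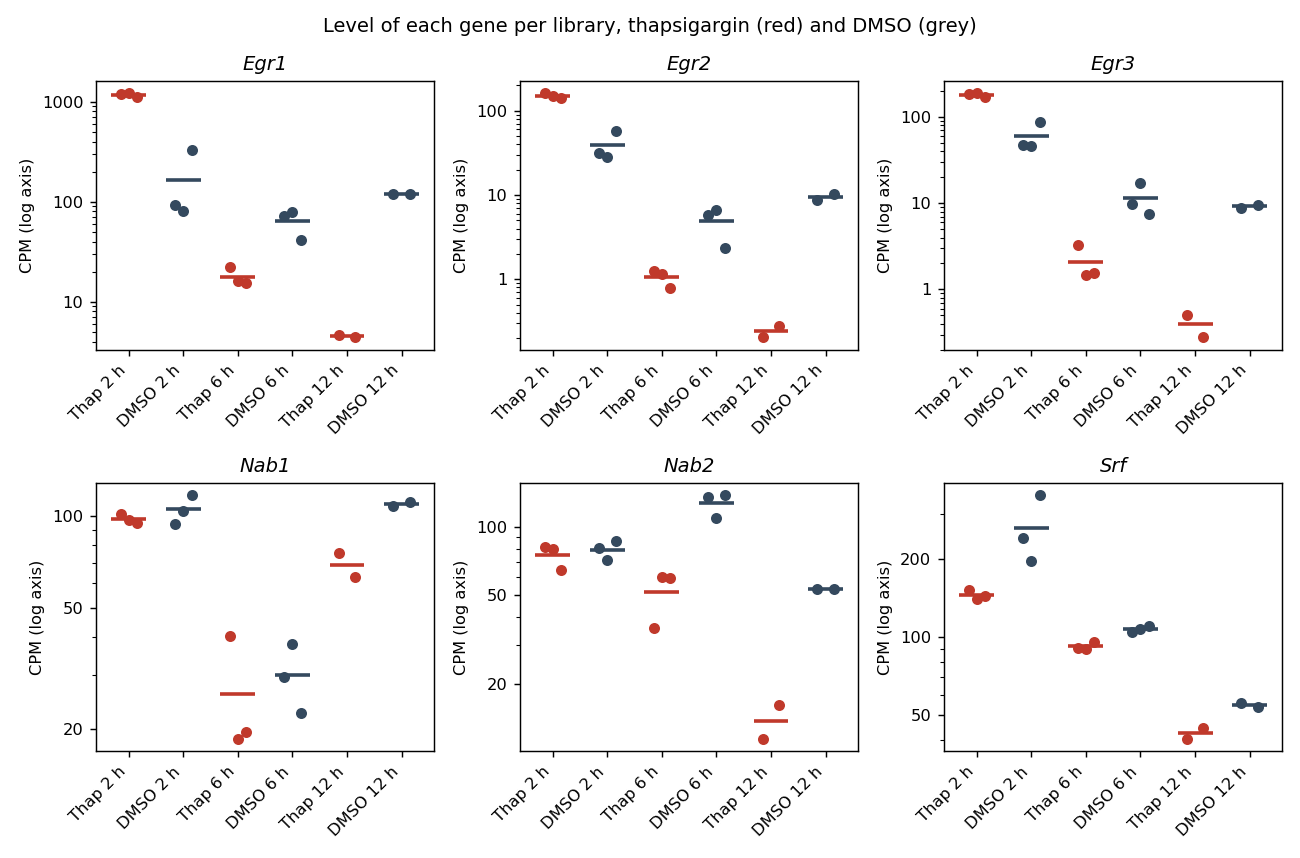
Level of each gene in CPM (log axis, a separate scale for each gene) in every library, with thapsigargin (red) and DMSO (grey) at 2, 6 and 12 h. Points are libraries and bars are group means; Egr1 averaged 1173 CPM with thapsigargin and 166 CPM with DMSO at 2 h, and 4.51 CPM with thapsigargin and 120 CPM with DMSO at 12 h.

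The change in response between times was tested directly, as the difference between thapsigargin and DMSO at the later time minus the same difference at the earlier time. Between 2 h and 6 h the response changed by -4.67 ± 0.65 for Egr1 (adjusted p = 0.00062), by -4.17 ± 0.55 for Egr2 (0.00038) and by -4.04 ± 0.61 for Egr3 (0.0012) on the log2 scale. The change for Nab2 was -1.23 ± 0.31 (adjusted p = 0.032). The Nab2 call was lost without any 1 of 7 libraries, with adjusted p between 0.053 and 0.089, and with a replicate block (0.055), total-count scaling (0.080) or no filter on low counts (0.092). Without DMSO replicate 3 at 2 h, the value for Egr1 was -5.62. The responses of Nab1 (-0.09 ± 0.39, adjusted p = 0.99) and Srf (0.64 ± 0.26, adjusted p = 0.23) were not called different. Thus 4 of the 6 genes were called lower and 0 higher, against 3.99% of all genes called in either direction and 1.87% lower.

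Between 6 h and 12 h no gene of the 6 was called by edgeR's quasi-likelihood test, where 0.571% of all genes were. An unadjusted p under 0.05 was found for 3 of the 6 and for 1435 of the 18039 genes tested. DESeq2 called 2 of the 6 and 2.6% of all genes. The edgeR values were -2.88 ± 0.72 for Egr1 (adjusted p = 0.099), -3.05 ± 0.72 for Egr2 (0.076) and -2.09 ± 0.76 for Egr3 (0.39). Those of Nab1, Nab2 and Srf were -0.47 ± 0.43, -0.63 ± 0.34 and -0.14 ± 0.30. Between 2 h and 12 h the response changed by -7.55 ± 0.79 for Egr1 (adjusted p = 3.2e-05), by -7.22 ± 0.72 for Egr2 (1.8e-05), by -6.13 ± 0.77 for Egr3 (0.00016) and by -1.87 ± 0.35 for Nab2 (0.0041). Nab1 (-0.56 ± 0.43) and Srf (0.50 ± 0.30) were again not called. Of all genes, 5.08% were called in either direction and 3.15% lower. Without DMSO replicate 3 at 2 h, Egr1 had -8.49 over this span. The contrasts between times share libraries with each other and with the comparisons at each time.

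**Figure D2:**
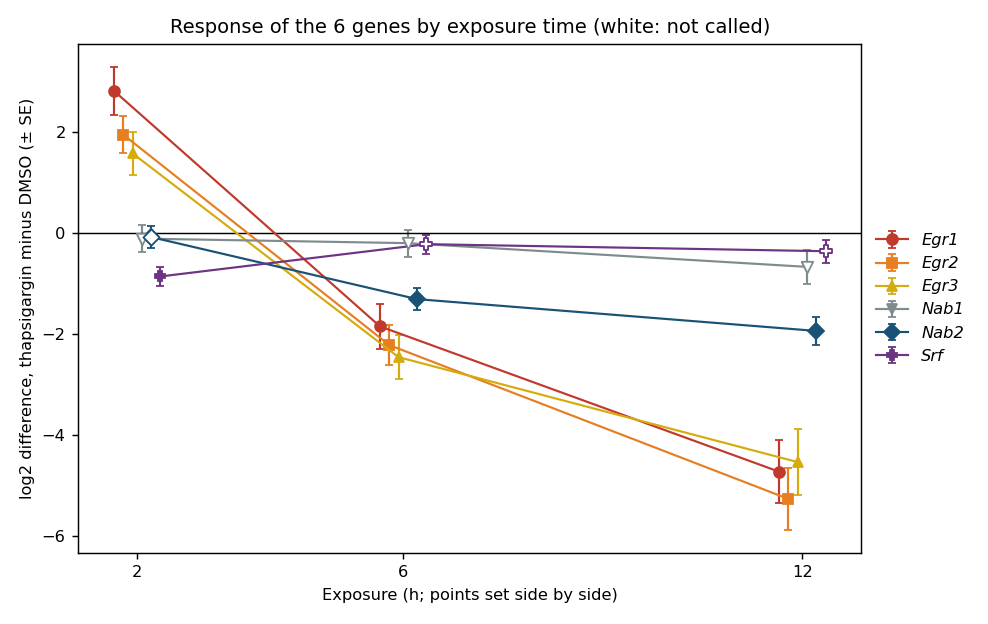
Log2 difference, thapsigargin minus DMSO, for each gene at 2, 6 and 12 h, with bars of 1 SE of the fit; open points did not pass an adjusted p of 0.05. The lines of Egr1, Egr2 and Egr3 run from above 0 at 2 h to between -5.27 and -4.54 at 12 h, while those of Nab1 and Srf stay between -0.86 and 0.

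The vehicle groups themselves differed between times. All 6 genes were called in DMSO at 6 h against DMSO at 2 h, 5 of them lower and 1 higher. Of all genes, 49.6% were called in that comparison, 25% lower and 24.6% higher, so this count stands against a broad background. Egr2 fell by 2.98 ± 0.39 (adjusted p = 9.3e-05), Egr3 by 2.39 ± 0.43 (0.00068), Nab1 by 1.81 ± 0.28 (0.00028) and Srf by 1.29 ± 0.19 (0.00020) on the log2 scale, and Egr1 fell by 1.37 ± 0.44 (0.019). Nab2 alone of the 6 was higher, at 0.69 ± 0.22 (adjusted p = 0.016). The Egr1 value rested on DMSO replicate 3 at 2 h, and was -0.42 without it (adjusted p = 0.29); without DMSO replicate 3 at 6 h its adjusted p was 0.084. The Egr1 call was also lost in a fit of these groups alone (adjusted p = 0.064), under total-count scaling (0.050) and with a transcript length offset (-0.93, 0.065). The Nab2 call was lost without DMSO replicate 2 at 2 h (adjusted p = 0.059) or DMSO replicate 3 at 6 h (0.056), with no filter on low counts (0.067), under total-count scaling (0.084) and with the length offset (0.37, adjusted p = 0.16).

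In DMSO at 12 h against DMSO at 2 h, 3 of the 6 genes were called lower and 0 higher, where 7.17% of all genes were called in either direction and 4.14% lower. Srf fell by 2.28 ± 0.23 (adjusted p = 1.6e-05), and the differences were -2.72 ± 0.51 for Egr3 (0.0031) and -2.04 ± 0.44 for Egr2 (0.0085). Without DMSO replicate 1 or 2 at 12 h the calls of Egr2 (adjusted p = 0.15 and 0.095) and Egr3 (0.075 and 0.065) were lost, and that of Egr2 also under total-count scaling (0.089). Egr1 (-0.47 ± 0.49), Nab1 (0.06 ± 0.30) and Nab2 (-0.58 ± 0.25) were not called, and Egr1 was 0.47 without DMSO replicate 3 at 2 h. Time of exposure and whatever else separated the sets of libraries prepared at each time cannot be told apart in these vehicle comparisons.

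After 48 h without drug, the EGR genes and Nab2 were above their level at 6 h of thapsigargin. Egr1 had 47.7, 117 and 90.9 CPM in recovery, against 22.1, 16.1 and 15.3 CPM with thapsigargin at 6 h. Egr2 had 2.9, 7.24 and 5.4 CPM in recovery, against 1.24, 1.15 and 0.794 CPM with thapsigargin at 6 h. Egr3 had 5.15, 16.5 and 10.6 CPM in recovery, against 3.25, 1.46 and 1.56 CPM with thapsigargin at 6 h. For each of the 3, recovery replicate 1, which was rich in mitochondrial transcripts, was the lowest of its group and still above every thapsigargin library. The differences were 2.26 ± 0.46 for Egr1 (adjusted p = 0.0018), 2.37 ± 0.44 for Egr3 (0.00092), and Egr2 was 4.95-fold higher (adjusted p = 0.00053).

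Nab2 had 113, 90.6 and 125 CPM in recovery, against 35.6, 59.7 and 59.5 CPM with thapsigargin at 6 h. The groups were apart, by 1.09 ± 0.22 (adjusted p = 0.0016), a call that was lost in a fit of these groups alone (0.071). Nab1 had 31.9, 51.6 and 39 CPM in recovery, against 40.2, 18.5 and 19.6 CPM with thapsigargin at 6 h. These overlapped, and 0.65 ± 0.27 did not pass (adjusted p = 0.099). It passed without thapsigargin replicate 1 at 6 h (1.10, adjusted p = 0.0038), without recovery replicate 1 (0.79, adjusted p = 0.044) and with the transcript length offset (0.70, adjusted p = 0.019). Srf had 62.3, 79.7 and 71.4 CPM in recovery, against 91.3, 90.4 and 96.3 CPM with thapsigargin at 6 h. Srf was lower in every recovery library, but -0.38 ± 0.19 did not pass (adjusted p = 0.15). In all, 4 of the 6 genes were called higher and 0 lower, against 25.5% of all genes called in either direction, 11.6% higher and 13.9% lower.

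Against DMSO at 6 h, edgeR's quasi-likelihood test called 0 of the 6 genes in recovery and 0.327% of all genes. DESeq2 called 0 of the 6 and 2.4% of all genes. In the edgeR fit 1 of the 6 had an unadjusted p under 0.05, as did 1766 of the 18039 genes tested. The differences were 0.41 ± 0.44 for Egr1, 0.09 ± 0.37 for Egr2, -0.09 ± 0.41 for Egr3, 0.44 ± 0.27 for Nab1 and -0.22 ± 0.22 for Nab2. Recovery libraries overlapped DMSO libraries for these 5 genes. Srf was the exception, with 62.3, 79.7 and 71.4 CPM in recovery, against 105, 108 and 111 CPM with DMSO at 6 h, and a difference of -0.60 ± 0.19 (adjusted p = 0.25). Without the 2 libraries above 10% mitochondrial reads it was -0.55 and was called (adjusted p = 0.031), where 2.1% of all genes were called. The thapsigargin and DMSO groups at 6 h serve in both of these comparisons and in the comparison at 6 h, which are therefore not independent.

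**Figure D3:**
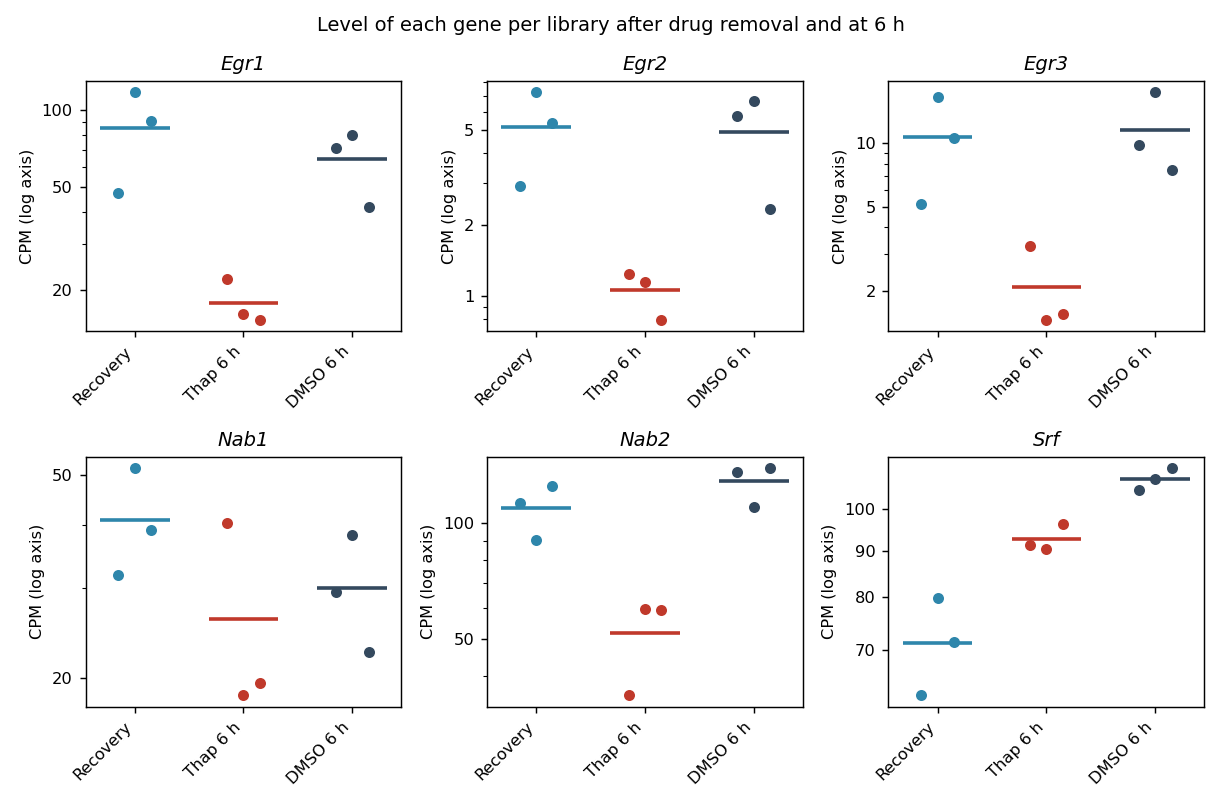
Level of each gene in CPM (log axis, a separate scale for each gene) in recovery (blue), thapsigargin at 6 h (red) and DMSO at 6 h (grey). Points are libraries and bars are group means; Nab2 averaged 110 CPM in recovery, 51.6 CPM with thapsigargin and 128 CPM with DMSO, and Srf 71.1, 92.7 and 108 CPM in the same groups.

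Ranked over the 7 group means, Egr1, Egr2 and Egr3 were highest with thapsigargin at 2 h and lowest with thapsigargin at 12 h. The ratio of those means was 260 for Egr1, 625 for Egr2 and 462 for Egr3. The NAB genes and Srf ranged less, with a ratio of 4.2 for Nab1, between DMSO at 12 h and thapsigargin at 6 h, and of 9.32 for Nab2, between DMSO at 6 h and thapsigargin at 12 h. For Srf it was 6.23, between DMSO at 2 h and thapsigargin at 12 h.

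The full order of group means differed between the genes. Egr1 ran 1173 CPM (thapsigargin 2 h), 166 (DMSO 2 h), 120 (DMSO 12 h), 85.2 (recovery), 64.3 (DMSO 6 h), 17.8 (thapsigargin 6 h) and 4.51 (thapsigargin 12 h), and the libraries of DMSO at 2 h and 12 h, and of recovery and DMSO at 6 h, overlapped. The Egr1 mean of DMSO at 2 h rested on replicate 3, and was 86.1 CPM without it, below DMSO at 12 h. Egr2 followed the same order, with 150, 38.9, 9.48, 5.18, 4.92, 1.06 and 0.241 CPM, and recovery and DMSO at 6 h overlapped. Egr3 ran 182 (thapsigargin 2 h), 60.7 (DMSO 2 h), 11.5 (DMSO 6 h), 10.8 (recovery), 9.19 (DMSO 12 h), 2.09 (thapsigargin 6 h) and 0.394 CPM (thapsigargin 12 h). For Egr3 the values of DMSO at 6 h, recovery and DMSO at 12 h overlapped from each to the next.

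Nab1 ran 110 (DMSO 12 h), 105 (DMSO 2 h), 97.4 (thapsigargin 2 h), 69.1 (thapsigargin 12 h), 40.8 (recovery), 30 (DMSO 6 h) and 26.1 CPM (thapsigargin 6 h), and neighbours overlapped within the first 3 and within the last 3 groups. Nab2 ran 128 (DMSO 6 h), 110 (recovery), 79.4 (DMSO 2 h), 75.2 (thapsigargin 2 h), 53 (DMSO 12 h), 51.6 (thapsigargin 6 h) and 13.7 CPM (thapsigargin 12 h). In that order the first pair, both groups at 2 h, and DMSO at 12 h with thapsigargin at 6 h overlapped. Srf ran 265 (DMSO 2 h), 146 (thapsigargin 2 h), 108 (DMSO 6 h), 92.7 (thapsigargin 6 h), 71.1 (recovery), 54.6 (DMSO 12 h) and 42.5 CPM (thapsigargin 12 h), with no overlap between neighbours.

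To compare levels between genes, CPM were divided by exon length. On this scale the 3 EGR genes summed to 356, 359 and 327 CPM per kb with thapsigargin at 2 h, against 40.7, 36.5 and 109 with DMSO at 2 h. The sum of Nab1 and Nab2 was 52.4, 50.7 and 45 CPM per kb with thapsigargin at 2 h, against 50.3, 49.5 and 58.1 with DMSO at 2 h. The EGR sum was thus 6.8, 7.08 and 7.27 times the NAB sum in the treated libraries, against 0.81, 0.738 and 1.88 times in the vehicle libraries. EGR transcripts outnumbered NAB transcripts in each treated library and in the 1 vehicle library with a high mitochondrial share.

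At 6 h the EGR sum was 0.275, 0.172 and 0.16 times the NAB sum with thapsigargin, against 0.371, 0.508 and 0.223 times with DMSO. At 12 h it was 0.0544 and 0.0539 times with thapsigargin, against 0.702 and 0.707 times with DMSO. In recovery it was 0.273, 0.737 and 0.465 times. The groups overlapped at 6 h and not at 12 h. Egr1 made up 74.8% to 75.7% of the EGR sum with thapsigargin at 2 h, against 48.9% to 66.3% with DMSO at 2 h, and 85.5% to 87.1% with thapsigargin at 12 h, against 83.7% to 85.4% with DMSO at 12 h.

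Egr4, another EGR factor, was nearly silent in vehicle and passed the filter on low counts only through the thapsigargin libraries at 2 h and 6 h, so its tests are given as a description. It had 139, 100 and 116 counts with thapsigargin at 2 h, against 3, 1 and 2 counts with DMSO at 2 h. Scaled for depth, the ratio of summed counts was 51 (95% exact interval 23.2 to 140, counting error only), and the fitted difference was 5.58 ± 0.80 (adjusted p = 0.00080), which was also called with no filter. At 6 h it had 11, 14 and 14 counts with thapsigargin, against 0, 0 and 2 with DMSO, a ratio of 16.9 (4.39 to 145), and it was called higher (3.86 ± 0.94, adjusted p = 0.0079; 6.65 without DMSO replicate 3). So Egr4, unlike the other 3, was above vehicle at 6 h, at a level of 0.387 ± 0.105 CPM with thapsigargin at 6 h and 0.0264 ± 0.0457 CPM with DMSO at 6 h (SD, n = 3 each). At 12 h both groups were at or under 1 count a library. In recovery it had 0, 5 and 0 counts, a level 6.94-fold lower than with thapsigargin at 6 h (95% exact interval 2.73 to 22.6, adjusted p = 0.022); the difference of -2.83 was -6.61 without recovery replicate 2, and the call was lost without recovery replicate 3 (-2.18, adjusted p = 0.071) or thapsigargin replicate 2 at 6 h (0.054) and in a fit of these groups alone (0.14). Wt1, a zinc finger factor that binds EGR-like sites, was not called at any time in the main fit, from few reads. Summed counts with thapsigargin and DMSO were 1 and 7 at 2 h, 13 and 0 at 6 h, and 7 and 19 at 12 h. It passed the filter only through DMSO at 12 h. Its adjusted p at 6 h was 0.056 in edgeR's quasi-likelihood test, and fits that left out 1 library called 1 to 2 of Egr4 and Wt1 there.

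Genes that act with SRF, downstream of it or downstream of EGR1 were counted in lists, each with the 2 called genes of largest difference by name. Like the 6 genes, the lists were chosen with earlier results of these data known. Their counts and medians are therefore a description and not independent evidence. Of 8 immediate early targets of TCF and SRF, 6 rose at 2 h and 0 fell, with a median log2 difference of 1.93, against -0.04 over all genes, of which 3.01% were called higher. Fosb, which encodes an AP-1 subunit, averaged 73.8 ± 9 CPM with thapsigargin at 2 h and 11.7 ± 4.06 CPM with DMSO at 2 h (SD, n = 3 each), a difference of 2.66 ± 0.40 (adjusted p = 0.00095). Arc, a synaptic plasticity gene, averaged 133 ± 19.9 CPM with thapsigargin at 2 h and 27.8 ± 2.09 CPM with DMSO at 2 h, a difference of 2.26 ± 0.19 (adjusted p = 5.1e-06). Like the EGR genes, both were above vehicle in each of the 3 treated libraries.

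At 6 h, 0 of the 8 were higher, 2 were lower and the median was -0.20, against 0.013 over all genes. That count is near the share of all genes called at 6 h, 21.8% in either direction, so nothing is read from it. The 2 were Nr4a1, an orphan nuclear receptor (-1.60 ± 0.35, adjusted p = 0.0035), and Fosb (-1.32 ± 0.41, adjusted p = 0.028). At 12 h, 0 were higher and 2 lower, with a median of -0.56, against 0.014 over all genes, of which 6.77% were called lower. These were Nr4a1 (-1.77 ± 0.44, adjusted p = 0.013) and Arc (-1.39 ± 0.24, adjusted p = 0.00093). The 6 h call of Fosb was lost without DMSO replicate 2 (adjusted p = 0.10) or thapsigargin replicate 2 or 3 (0.11 and 0.097), and the 12 h call of Nr4a1 without any 1 of its 4 libraries (0.063 to 0.13). Under total-count scaling both were lost (0.15 and 0.069), and Fosb also in a fit of the 6 h groups alone (0.055). In recovery against thapsigargin at 6 h, 1 of the 8 fell and 7 were not called, where 13.9% of all genes were called lower. It was Btg2, an antiproliferative gene (-0.89 ± 0.30, adjusted p = 0.037), whose call was lost without thapsigargin replicate 1 or 3 (0.11 and 0.067) or recovery replicate 1 (0.093), with a replicate block (0.063), under total-count scaling (0.15) and in a fit of these groups alone (0.19).

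Of 22 cytoskeletal targets of MRTF and SRF, 0 rose and 2 fell at 2 h, 0 rose and 9 fell at 6 h, and 0 rose and 9 fell at 12 h. The medians were -0.50, -0.79 and -1.19 on the log2 scale, against -0.04, 0.013 and 0.014 over all genes. Of all genes, 1.51%, 8.79% and 6.77% were called lower at these times. At 2 h the 2 were Cnn2, a calponin that binds actin (-0.72 ± 0.19, adjusted p = 0.038), and Tpm1, a tropomyosin (-0.56 ± 0.15, adjusted p = 0.040). Both calls were lost on leaving out most single libraries of the 2 h groups, with adjusted p between 0.054 and 0.14 for Cnn2, lost without any 1 of the 6, and between 0.08 and 0.17 for Tpm1, lost without any but DMSO replicate 3. Both were also lost with a replicate block (0.071 and 0.075), under total-count scaling (0.35 and 0.70) and with no filter (0.25 and 0.49), and Cnn2 with RLE scaling (0.056). DESeq2 called 7 of the 22 at 2 h, where it called 9.0% of all genes.

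The largest falls at 6 h were those of Myl9, a myosin light chain, and Acta2, smooth muscle actin. Myl9 averaged 12.8 ± 5.29 CPM with thapsigargin at 6 h and 71.6 ± 27.2 CPM with DMSO at 6 h (SD, n = 3 each), a difference of -2.49 ± 0.44 (adjusted p = 0.00065). Acta2 averaged 360 ± 110 CPM with thapsigargin at 6 h and 1377 ± 316 CPM with DMSO at 6 h, a difference of -1.94 ± 0.31 (adjusted p = 0.00027). At 12 h Myl9 was lower by 3.67 ± 0.59 (adjusted p = 0.00047). Actc1, cardiac actin, had 2 counts in all with thapsigargin at 12 h, against 30 with DMSO at 12 h, and a level 13.4-fold lower (95% exact interval 3.39 to 115). Its fitted difference of -3.62 was -7.38 without thapsigargin replicate 2, -2.74 without thapsigargin replicate 1 and -3.01 without DMSO replicate 1. In recovery against thapsigargin at 6 h, 6 of the 22 rose and 2 fell, with a median of 0.25, against 0.04 over all genes, of which 11.6% were called higher and 13.9% lower. Only 1 of the 22 was called there in a fit of these groups alone, which called 9.2% of all genes.

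Of the 6 cofactors of SRF, 0 were called at 2 h, 1 was higher and 1 lower at 6 h, and 1 was lower at 12 h. Of all genes, 4.52%, 21.8% and 13.1% were called in either direction at these times, so nothing is read from these counts. Elk3, a TCF known as a repressor until phosphorylated, was lower at 6 h (-1.16 ± 0.20, adjusted p = 0.00066) and at 12 h (-1.77 ± 0.25, adjusted p = 0.00017). It averaged 52.3 ± 3.12 CPM with thapsigargin at 6 h and 117 ± 3.8 CPM with DMSO at 6 h (SD, n = 3 each). Myocd, myocardin, had 98 counts in all with thapsigargin at 6 h, against 3 with DMSO at 6 h, a ratio of 28.4 (95% exact interval 9.43 to 140, adjusted p = 0.0021), and was not called at 12 h. Its fitted difference at 6 h, 4.62, was 5.40 without DMSO replicate 1 and 4.02 without DMSO replicate 2. The medians were -0.14, -0.05 and -0.14 at 2, 6 and 12 h, against -0.04, 0.013 and 0.014 over all genes. In recovery against thapsigargin at 6 h, 1 of the 6 rose (Elk3, 1.32 ± 0.20) and 1 fell, against 25.5% of all genes called. The gene that fell was Myocd, with 6 counts in recovery, against 98 with thapsigargin at 6 h, a level 14.5-fold lower (95% exact interval 6.44 to 40.6), and its call was lost in a fit of these groups alone (adjusted p = 0.088).

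Of 9 kinases of the ERK pathway, 0 were called at 2 h, where the median was -0.10, and 0 at 12 h. At 6 h 1 was lower and 0 higher, namely Mapk3, which encodes ERK1 (-0.87 ± 0.29, adjusted p = 0.044), and it was higher in recovery against thapsigargin at 6 h (1.26 ± 0.30, adjusted p = 0.0051; 0.10 in a fit of these groups alone). With 8.79% of all genes called lower at 6 h, and 11.6% called higher in recovery, 1 of 9 is near the background. The Mapk3 call at 6 h was lost without DMSO replicate 1 or 3 (adjusted p = 0.10 and 0.15) or thapsigargin replicate 1 or 3 (0.17 and 0.081), with a replicate block (0.060), in DESeq2 (0.066), with RLE scaling (0.083), in a fit of the 6 h groups alone (0.075) and with the transcript length offset (0.057).

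Of 12 genes reported elsewhere as EGR1 targets, 0 rose and 2 fell at 2 h, when Egr1 was at its highest, and the median was -0.32, against -0.04 over all genes, of which 1.51% were called lower. They were Mmp14, a membrane matrix metalloprotease (-0.99 ± 0.23, adjusted p = 0.020), and Cd44, the hyaluronan receptor (-0.85 ± 0.20, adjusted p = 0.025). Both were lost without any 1 thapsigargin library or DMSO replicate 3, with adjusted p between 0.066 and 0.10 for Mmp14 and between 0.067 and 0.12 for Cd44. Cd44 was also lost with no filter (0.14) and under total-count scaling (0.42), and Mmp14 with the length offset (0.059). At 6 h 2 rose and 6 fell, with a median of -1.01, and at 12 h 1 rose and 7 fell, with a median of -1.26, against 0.013 and 0.014 over all genes. Of all genes, 13% were called higher and 8.79% lower at 6 h, and 6.29% higher and 6.77% lower at 12 h. Not all of the 8 calls at 12 h held in fits that left out 1 library, which leave 1 in its group. Fewer of all genes were called in those fits as well, so nothing is read from the drop.

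Plau, which encodes urokinase, averaged 22 ± 6.38 CPM with thapsigargin at 6 h and 144 ± 40.2 CPM with DMSO at 6 h (SD, n = 3 each), a difference of -2.72 ± 0.32 (adjusted p = 1.7e-05). At 12 h it was lower by 2.80 ± 0.39 (adjusted p = 0.00014). Icam1, a leukocyte adhesion molecule, went the other way from few reads, and passed the filter on low counts only through thapsigargin libraries, 1 at 6 h and 2 at 12 h, so its tests are given as a description. It had 20 counts in all with thapsigargin at 6 h, against 0 with DMSO at 6 h, at least 5.79-fold higher against a floor of 3 counts over the group (adjusted p = 0.023). At 12 h it had 43 counts with thapsigargin, against 2 with DMSO, a ratio of 24.2 (95% exact interval 6.29 to 206, adjusted p = 0.039), and it was the gene of the list called higher there. Its 6 h call was lost without any 1 DMSO library or thapsigargin replicate 3 (adjusted p = 0.051 to 0.086), and its 12 h call without any 1 library (0.11 to 0.30) or with a replicate block (0.060). In recovery against thapsigargin at 6 h, 5 of the 12 rose and 1 fell, with a median of 0.74, against 0.04 over all genes, of which 11.6% were called higher. In a fit of these groups alone, 3 of the 12 were called, against 9.2% of all genes.

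**Figure D4:**
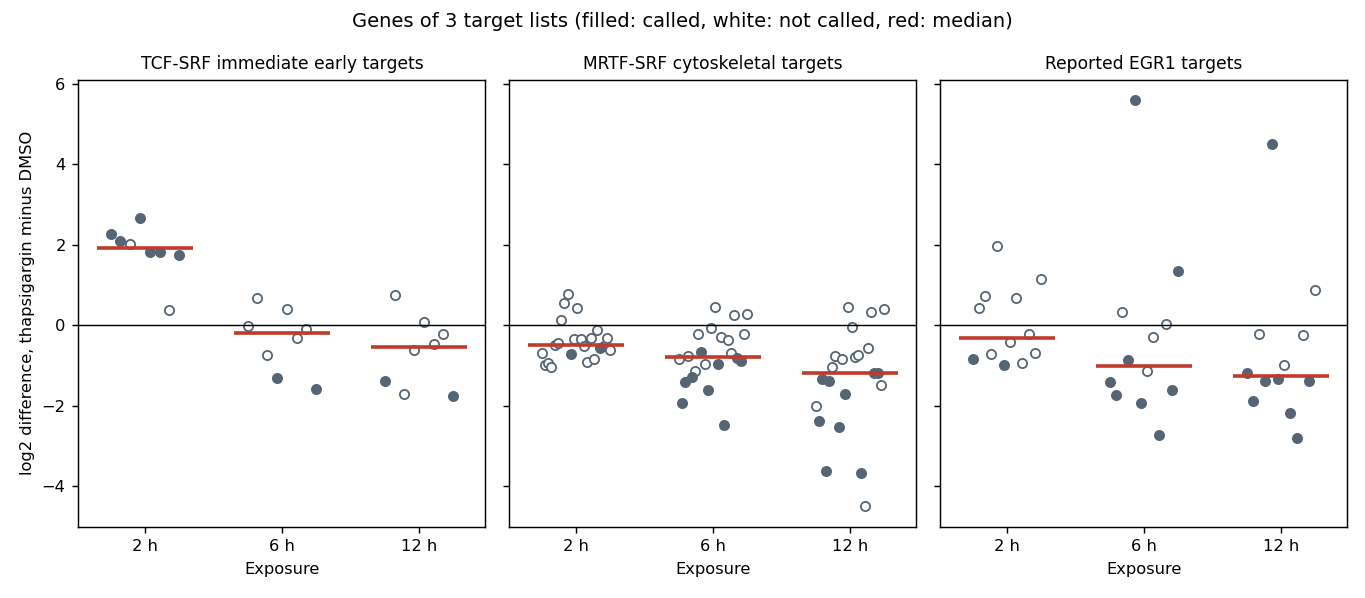
Log2 difference, thapsigargin minus DMSO, at 2, 6 and 12 h for the genes of 3 lists; filled points passed an adjusted p of 0.05 and the red bar is the list's median. The immediate early targets have a median of 1.93 at 2 h and -0.56 at 12 h, and the cytoskeletal targets -0.50 at 2 h and -1.19 at 12 h. The lists were chosen with earlier results of these data known.

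The genes whose level ran most like each of the 6 were found by Pearson correlation of log2(CPM + 1) over the 19 libraries, among 9742 genes whose mean was 5 CPM or more. Genes without a symbol or with a clone-like one, pseudogenes, mitochondrial genes and ribosomal protein genes were left out by symbol, and the 6 genes were not ranked. The libraries share groups, depth and scaling, so these values describe the libraries and carry no p. For Egr1 they were Errfi1, an inhibitor of EGF receptor signalling (r = 0.931), Lvrn (0.924) and Adarb1, an RNA-editing enzyme (0.920). For Egr2 they were Nr4a1 (0.969), Mtss1 (0.966) and Errfi1 (0.964), and for Egr3 Errfi1 (0.980), Kctd11 (0.976) and Nr4a1 (0.974). Errfi1 was thus among the 3 nearest genes of all 3 EGR factors.

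The repressors and Srf had other neighbours. Nab1 ran most like Hspa4l, a heat shock protein of the HSP110 family (0.993), Stag2, a cohesin subunit (0.988) and Abi2 (0.988). Nab2 ran most like Hpcal1 (0.976), Etv4, an ETS factor (0.971), and Bcl2l1, which encodes BCL-XL (0.968). Srf ran most like the muscle genes Myh3, embryonic myosin heavy chain (0.951), Ankrd1 (0.944) and Synpo2l (0.939).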

How the data were processed

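The submitters' processing notes name Trim Galore, STAR 2.5.3a, bedtools 2.31.0, DESeq2 and the mouse build mm10. The authors deposited whole-number raw counts for each gene and library. How reads were counted, with which strand setting and annotation, is not given in the sources used here. Their 5 lines of unassigned reads, 13.723% to 28.737% of all counts, were left out of library sizes and tests. Of the 55401 identifiers, 55141 matched GENCODE M21 (GRCm38) by base identifier, 54349 with the version.

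Counts were tested with edgeR 4.0.16 and limma 3.58.1 in R 4.3.3: TMM scaling, filterByExpr by group (18039 genes), and 1 quasi-likelihood fit over all 7 groups with no replicate block (common biological coefficient of variation 0.352). P-values are two-sided, adjusted by Benjamini-Hochberg over all genes tested, and a gene was called under 0.05. CPM use TMM-scaled library sizes, and SE is that of the fitted log2 difference. The scripts were checked on simulated data. Tables and plots used Python 3.11.15, numpy 2.4.6, pandas 2.3.3, scipy 1.17.1 and matplotlib 3.10.9. Printed ratios of summed counts carry exact 95% intervals, which cover counting error only.

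The members and gene lists were chosen with earlier results of these data known. Text names all 6 members, per list the 2 called genes of largest absolute difference at 2, 6 and 12 h, and per member the 3 most correlated genes. Egr4 and Wt1 make up a list of their own, and Nemp1, Gm16229 and Stat6 are named for their overlap with Nab2. Alternatives were RLE and total-count scaling, no filter, fits of the compared groups alone, DESeq2 1.42.0, a replicate block, leaving out mitochondrial genes or the 2 libraries above 10% mitochondrial reads, a transcript length offset, and leaving out each library. Thapsigargin libraries at 12 h are numbered by their titles; the deposit also numbers them otherwise. No 2 libraries of a group agreed within sampling noise.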

Additional observations from a re-analysis of the deposited data

Results flagged for a closer look

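The response to thapsigargin differed between time points for 4 of the 6 genes, by the test of the difference itself in edgeR's quasi-likelihood fit. The early rise and late fall of EGR genes was known when the genes were chosen, so this count is not independent evidence of it. Between 6 h and 2 h the response changed by -4.67 for Egr1, -4.17 for Egr2, -4.04 for Egr3 and -1.23 for Nab2 on the log2 scale. Between 12 h and 2 h it changed by -7.55 for Egr1, -7.22 for Egr2, -6.13 for Egr3 and -1.87 for Nab2. Of all genes, 3.99% were called in the first of these contrasts and 5.08% in the second. The Nab2 call between 6 h and 2 h was lost on leaving out any of several single libraries. It was also lost with a replicate block, total-count scaling or no filter on low counts. All 3 EGR genes were higher in 3 of 3 thapsigargin libraries than in any DMSO library at 2 h, and lower in 3 of 3 at 6 h and 2 of 2 at 12 h. No group has 4 or more libraries, so no test for a library far from the others of its group was made.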

How the results depend on the processing

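Of 540 recomputed log2 differences of the 6 genes outside the leave-one-out fits, 500 kept their direction and their side of the threshold, 15 newly passed, 17 no longer passed and 8 changed sign. The sign changes were all in differences not called. They were Nab1 (0.12) and Nab2 (0.15) at 2 h under total-count scaling, and Nab1 (0.04), Nab2 (0.05), Egr3 in recovery against DMSO at 6 h (0.21) and Egr1 in DMSO at 12 h against 2 h (0.46) without the libraries above 10% mitochondrial. Nab1 in DMSO at 12 h against 2 h had -0.02 with the replicate block and -0.02 without mitochondrial genes. At 2 h, 2 of the 6 genes were called under total-count scaling, against 4, with 2.9% of all genes called, against 4.52%. In recovery against DMSO at 6 h, 1 was called without the libraries above 10% mitochondrial, against 0, with 2.1% of all genes called, against 0.327%. For the response at 12 h minus 6 h, 0 were called in the main fit, which called 0.571% of all genes. With no filter on low counts 2 were called (0.2% of all genes), and with only the groups compared 1 (0.9%). DESeq2 called 2 (2.6%), as did the fits without the libraries above 10% mitochondrial (4.1%) and with the transcript length offset (1.1%). The causes were not tested. Total-count scaling moved the median of all genes to 0.167 at 2 h, 0.144 at 6 h and -0.133 in recovery against thapsigargin at 6 h, from -0.04, 0.013 and 0.04.

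Over fits that left out 1 library, the calls ranged from 2 to 4 at 2 h, with 1.8% to 3.7% of all genes called. They ranged from 3 to 4 for the response at 6 h minus 2 h (2.3% to 4.4% of all genes). In recovery against thapsigargin at 6 h they ranged from 4 to 5 (19.6% to 29.9%). In DMSO at 6 h against 2 h they ranged from 4 to 6 (34.4% to 48.9%), and at 6 h they stayed at 4 (16.1% to 18.5%). The main fit called 4.52%, 3.99%, 25.5%, 49.6% and 21.8% of all genes in these comparisons. Values that changed sign in some of these fits ranged from -0.15 to 0.02 (Nab2 at 2 h), from -0.54 to 0.1 (Nab1, response at 6 h minus 2 h), from -0.24 to 0.36 (Egr2) and from -0.53 to 0.33 (Egr3) in recovery against DMSO at 6 h, and from -0.8 to 0.47 (Egr1) and from -0.01 to 0.15 (Nab1) in DMSO at 12 h against 2 h. At 12 h a fit without 1 library leaves an arm with 1, which is assumed to vary like the other groups.

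The correlations of same-numbered libraries did not settle whether replicate numbers pair the libraries. Deviations of same-numbered libraries from their group means correlated at -0.048, -0.011 and -0.117 at 2 h, at 0.571, -0.939 and 0.735 at 6 h, and at -0.089 for both at 12 h, over 10341 genes. With 2 libraries a group at 12 h, both values there are equal by construction and count as 1. The thapsigargin libraries at 12 h carry other numbers elsewhere in the deposit, so their numbers only name them, and another numbering could change the 12 h value and the block there. With the replicate block, 3 genes were called at 2 h and 3 for the response at 6 h minus 2 h, against 4 in each without it. The block fit called 3.3% and 2.8% of all genes there, against 4.52% and 3.99%. Of 216 recomputed counts of called list genes outside the leave-one-out fits, 172 stayed within 1.5 times and 44 did not. In fits of the compared groups alone, 10 cytoskeletal targets were called at 2 h and 19 at 12 h, against 2 and 9, and 6 immediate early targets at 12 h, against 2. Those fits called 16.2% of all genes at 2 h and 62.2% at 12 h, so nothing is read from the added calls. Without the libraries above 10% mitochondrial, 6 cytoskeletal targets were called at 2 h and 15 at 12 h, where 10.4% and 25.5% of all genes were called. Depth limits Egr2 and Egr3 at 12 h of thapsigargin, with 4 to 10 counts a library, and all of Egr4 outside thapsigargin.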
